A study of Mus musculus with 8 samples.

Results

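A set of 10 genes of the transcriptional control of mitochondria was described in tibialis anterior (TA) muscle of mice that lack Klotho. They are the PGC-1 coactivators *Ppargc1a* and *Ppargc1b*, the estrogen-related receptors *Esrra* and *Esrrg*, the mitochondrial transcription factors *Nrf1* and *Tfam*, the peroxisome proliferator-activated receptors *Ppara* and *Ppard*, and the deacetylases *Sirt1* and *Sirt3*. They were chosen by name for their place in this pathway, and all 10 were found among the 12551 genes counted. RNA sequencing was performed on TA muscle, a fast-twitch muscle of the lower hindlimb, of 4 wild-type (WT) and 4 homozygous Klotho-null (KL-/-) mice. All 8 were males of 7 weeks, bred from heterozygous parents on a mixed genetic background. The null allele is present in every tissue from conception, so a difference in muscle can follow from the loss of Klotho in muscle or elsewhere, such as in the kidney.

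PGC-1α, the protein of *Ppargc1a*, binds to transcription factors that sit on DNA and raises the activity of mitochondrial genes. In skeletal muscle it is known for its induction by contraction, through calcium- and AMP-activated kinases, and for its higher level in oxidative fibers. Its partners include the estrogen-related receptors, which drive genes of oxidative phosphorylation, NRF1, which drives nuclear genes of the respiratory chain and *Tfam*, and the PPARs, which drive genes of fatty acid use. SIRT1 deacetylates PGC-1α in the nucleus, and SIRT3 deacetylates enzymes inside mitochondria. Both depend on NAD+.

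Promoter sequence was matched to RefSeq by symbol on build GRCm38.p6, which is mm10. Each window ran from 250 bases before the annotated start to 50 bases after it. Windows of 9 of the 10 genes were used. *Ppargc1b* was left out of this set, so the counts of member windows below say nothing about its promoter. The windows of *Nrf1* and *Sirt1* are printed because these were the members whose transcript levels did not overlap between genotypes, and those of *Tfam* and *Ppara* because they hold binding motifs of the nuclear respiratory factors. They lie at chr6:30047738-30048037 on the plus strand (*Nrf1*), chr10:63338986-63339285 on the minus strand (*Sirt1*), chr10:71237995-71238294 on the minus strand (*Tfam*) and chr15:85735526-85735825 on the plus strand (*Ppara*). Each is written 5′ to 3′, with motif matches in capitals.
*Nrf1*: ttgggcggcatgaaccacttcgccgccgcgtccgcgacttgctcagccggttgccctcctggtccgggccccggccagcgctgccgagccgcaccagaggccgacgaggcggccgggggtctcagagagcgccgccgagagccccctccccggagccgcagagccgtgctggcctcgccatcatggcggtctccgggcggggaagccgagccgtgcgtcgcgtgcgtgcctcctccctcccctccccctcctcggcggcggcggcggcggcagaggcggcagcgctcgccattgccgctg
*Sirt1*: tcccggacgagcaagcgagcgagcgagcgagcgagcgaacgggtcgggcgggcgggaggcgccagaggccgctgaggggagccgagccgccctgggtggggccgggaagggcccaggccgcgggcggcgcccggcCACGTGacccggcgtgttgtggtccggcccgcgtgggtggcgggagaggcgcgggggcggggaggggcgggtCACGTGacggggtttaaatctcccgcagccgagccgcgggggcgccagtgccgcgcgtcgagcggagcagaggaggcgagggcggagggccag
*Tfam*: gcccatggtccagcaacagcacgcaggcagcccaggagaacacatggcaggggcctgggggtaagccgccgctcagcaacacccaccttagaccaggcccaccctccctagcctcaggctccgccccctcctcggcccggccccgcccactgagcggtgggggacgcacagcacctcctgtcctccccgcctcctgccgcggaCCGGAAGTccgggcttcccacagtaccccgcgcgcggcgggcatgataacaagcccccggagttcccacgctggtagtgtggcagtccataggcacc
*Ppara*: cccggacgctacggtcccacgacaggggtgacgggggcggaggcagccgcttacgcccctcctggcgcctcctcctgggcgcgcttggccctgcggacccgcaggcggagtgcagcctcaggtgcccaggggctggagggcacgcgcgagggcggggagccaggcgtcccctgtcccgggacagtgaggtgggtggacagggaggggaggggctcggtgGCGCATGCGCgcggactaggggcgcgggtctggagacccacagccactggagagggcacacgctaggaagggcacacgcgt
Motif searches covered both strands of all 32851 windows. The palindrome GCGCATGCGC (GCGCA and its reverse complement), bound by NRF1, was in the *Ppara* window at 31 bases before the start and in 0.971% of all windows. The site CCGGAAGT, bound by GABP (NRF2), was in the *Tfam* window at 47 bases before the start, in the *Sirt3* window at 86 bases before it, and in 3.89% of all windows. The E-box CACGTG was in the *Sirt1* window at 115 and 43 bases before the start and in 7.15% of all windows. The letters AAGGTCA, the core of a site of the estrogen-related receptors, were in 0 of the 14 member windows used and in 4.72% of all windows. The base composition of the windows was 77.0% G and C for *Nrf1*, 79.0% for *Sirt1*, 70.3% for *Tfam* and 48.7% for *Ppargc1a*, against a median of 52.7% over all windows. The annotated start in the *Ppargc1a* window lies 13804 bases from the first base of the gene as it was counted. That distance is 212 bases for *Ppara* and 0 for the printed windows of *Nrf1*, *Sirt1* and *Tfam*. For further windows among the 14 it is 440 bases (*Sirt3*), 28333 bases (*Nrf1*) and 42752 to 388821 bases (*Esrrg*).

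WT libraries held 20860262 to 26501093 counts and KL-/- libraries 22061526 to 29273758. All 10 members passed the filter on low counts, and the lowest count of a member in any library was 227, against a floor of 3 counts. *Kl* is not among the counted genes, so the counts give no check of the labeled genotypes, which the study determined by PCR. The batch date of KL-/- replicate 3 differs from that of the remaining 7, and date and mouse cannot be told apart. All 9 muscle fiber markers were measured. Their summed level was 132600 to 153300 CPM in WT and 149500 to 197100 CPM in KL-/- libraries. CPM are counts relative to library size, scaled here with edgeR's TMM factors, and are given as mean ± SD with n = 4 mice per genotype, and fold changes are KL-/- over WT on a log2 scale. In whole muscle, fewer cells of a type and less RNA per cell cannot be told apart.

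No member of the pathway passed the threshold for a difference between genotypes. In edgeR's quasi-likelihood test, adjusted over all genes after Benjamini-Hochberg (FDR), 0 of 10 members were under 0.05, where 14% of all genes were called, 7.35% higher and 6.67% lower in KL-/- muscles. At an unadjusted p under 0.05, 5 of 10 members passed (*Ppargc1a*, *Ppargc1b*, *Nrf1*, *Sirt1* and *Sirt3*), where 32.1% of all genes did. DESeq2 called 2 members, *Ppargc1b* and *Nrf1*, where it called 19.6% of all genes. The genotypes did not overlap in 2 of 10 members, *Nrf1* and *Sirt1*, where 19.7% of all genes had no overlap (10.2% with every KL-/- muscle above WT and 9.47% with every one below), and both lay higher in KL-/- muscles. Log2 fold changes were positive in 7 members and negative in 3, with a median of 0.18 against −0.02 over all genes. Their median size without sign was 0.23, against 0.18 over all genes. Without KL-/- replicate 2, edgeR called 4 members, *Ppargc1a*, *Ppargc1b*, *Nrf1* and *Ppard*, where it then called 22% of all genes. Without WT replicate 1 it called *Ppargc1b* alone, where it called 9.51% of all genes. With libraries scaled by their totals it called *Ppargc1b* and *Sirt3*, where it called 20.9% of all genes.

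**Figure D1:**
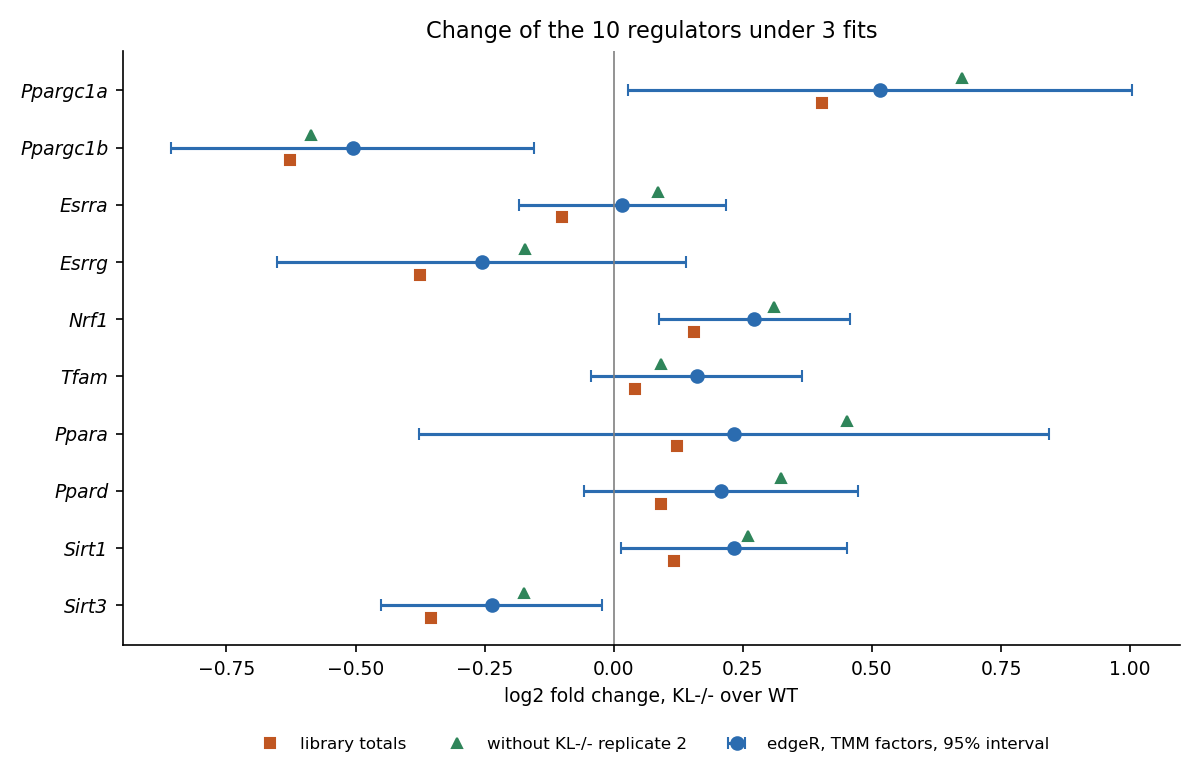
Log2 fold change of each of the 10 regulators, KL-/- over WT, with 95% confidence intervals from edgeR over 4 mice per genotype (circles), with libraries scaled by their totals (squares) and without KL-/- replicate 2 (triangles). The circles run from −0.51 (*Ppargc1b*) to 0.52 (*Ppargc1a*), and the intervals of *Ppargc1a*, *Ppargc1b*, *Nrf1*, *Sirt1* and *Sirt3* lie on one side of 0 before adjustment over all genes.

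The PGC-1 coactivators had the largest positive and the largest negative estimate among the 10 members. *Ppargc1a*, at chromosome 5, 51454249 to 51553921 on the minus strand, encodes PGC-1α. Its level in WT replicates 1 to 4 was 61.8, 57.8, 51.3 and 62.5 CPM. In KL-/- replicates 1 to 4 it was 129, 56.0, 71.6 and 76.5 CPM. KL-/- replicates 1, 3 and 4 lay above every WT muscle, and KL-/- replicate 2 lay below 3 of the 4 WT muscles. The means were 58.3 ± 5.11 CPM in WT and 83.4 ± 31.9 CPM in KL-/- muscles, a log2 fold change of 0.52 ± 0.22 (SE; 95% interval 0.03 to 1.00) that did not pass the threshold in edgeR (FDR = 0.136). Without KL-/- replicate 2 the log2 fold change was 0.67 (edgeR FDR = 0.0363), and without KL-/- replicate 1 it was 0.23 (edgeR FDR = 0.216).

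*Ppargc1b*, at chromosome 18, 61298136 to 61400431 on the minus strand, encodes PGC-1β, a coactivator related to PGC-1α. WT replicates 1 to 4 had 14.1, 18.4, 21.4 and 23.3 CPM of this transcript. In KL-/- replicates 1 to 4 it was 11.7, 16.1, 13.1 and 13.6 CPM. KL-/- replicates 1, 3 and 4 lay below every WT muscle, and KL-/- replicate 2 lay between WT replicates 1 and 2. The means were 19.3 ± 3.99 CPM in WT and 13.6 ± 1.87 CPM in KL-/- muscles, a log2 fold change of −0.51 ± 0.16 (SE; 95% interval −0.86 to −0.15). It missed the threshold in edgeR (FDR = 0.0602) and passed in DESeq2 (FDR = 0.0234), without WT replicate 1 in edgeR (−0.63, FDR = 0.0241) and without KL-/- replicate 2 in edgeR (−0.59, FDR = 0.0359).

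The coactivators were also set against each other within each library, which does not depend on how libraries are scaled. The log2 ratio of *Ppargc1a* to *Ppargc1b* counts in WT replicates 1 to 4 was 2.13, 1.65, 1.26 and 1.42. In KL-/- replicates 1 to 4 it was 3.47, 1.79, 2.45 and 2.49. KL-/- replicate 2 lay below WT replicate 1, and the other 3 KL-/- muscles lay above every WT muscle. The mean was 1.62 ± 0.38 in WT and 2.55 ± 0.69 in KL-/- muscles, a 1.91-fold higher ratio that did not pass an exact permutation test (two-sided, 70 labelings of 4 against 4 mice, p = 0.0571, adjusted over 5 such ratios p = 0.143). The smallest p this design allows is 0.0286.

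**Figure D2:**
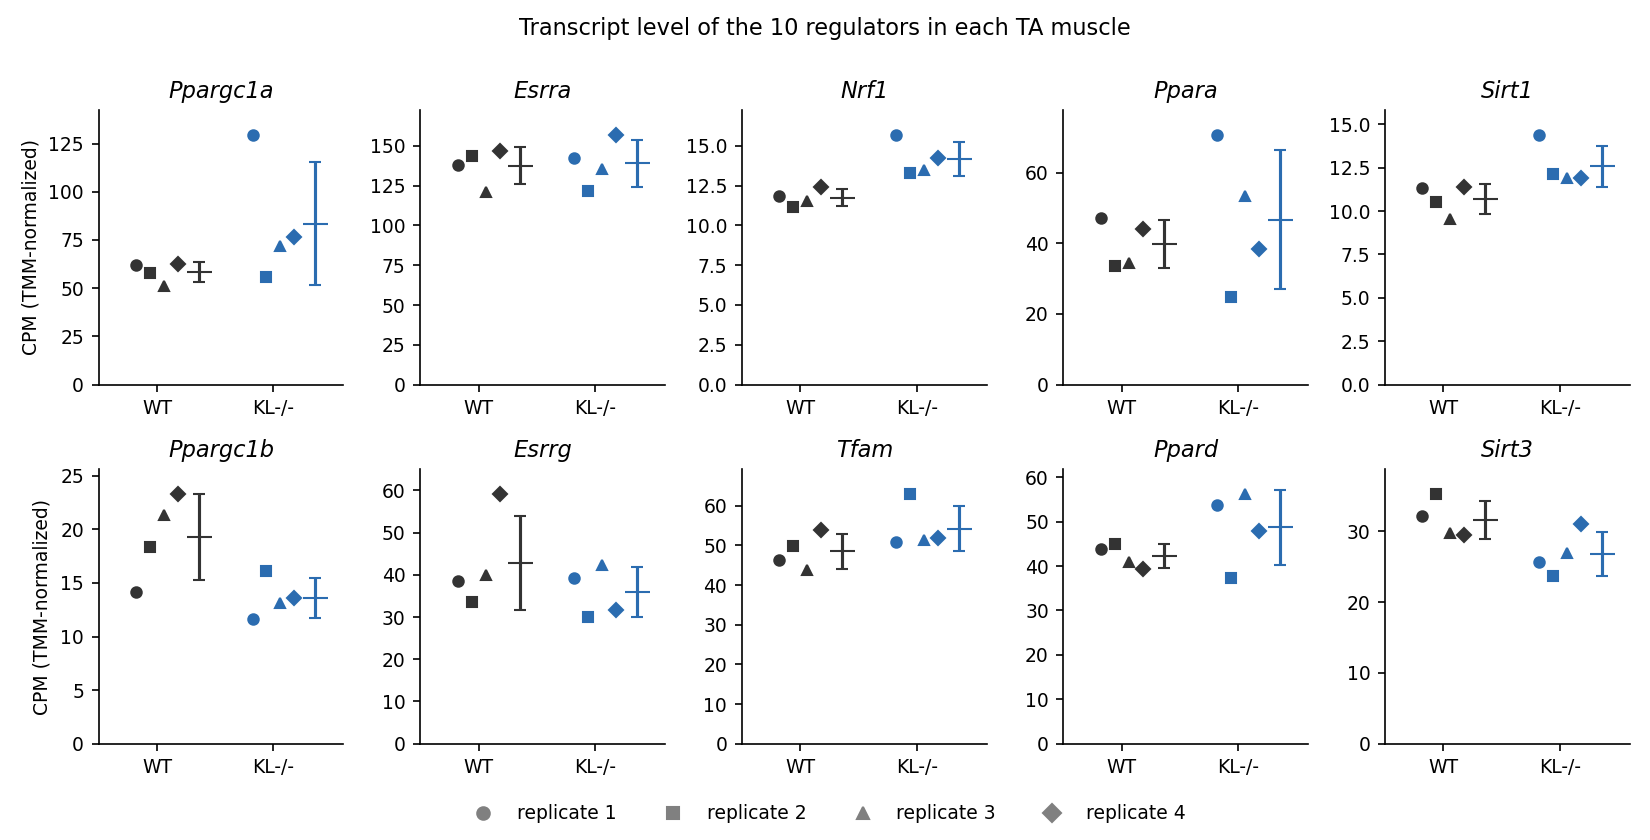
Transcript level of each of the 10 regulators in CPM (TMM-normalized, linear axes from 0) in every TA muscle, with a symbol per replicate number and the mean ± SD of 4 mice beside each genotype. KL-/- replicate 1 was the highest muscle for *Ppargc1a* at 129 CPM, and no KL-/- muscle overlapped WT for *Nrf1* or *Sirt1*.

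The estrogen-related receptors are orphan nuclear receptors that PGC-1α coactivates on genes of oxidative phosphorylation. *Esrra*, at chromosome 19, 6910977 to 6921808 on the minus strand, had nearly equal means. It was measured in WT replicates 1 to 4 at 138, 144, 121 and 147 CPM, and in KL-/- replicates 1 to 4 at 142, 121, 136 and 157 CPM. The genotypes overlapped over nearly their whole range, with means of 137 ± 11.6 and 139 ± 14.6 CPM. The log2 fold change was 0.02 ± 0.09 (SE; 95% interval −0.18 to 0.22; edgeR FDR = 0.916), and its sign turned when libraries were scaled by their totals (−0.10). The exons of *Esrra* share 50 bases with *Trmt112* on the other strand, whose log2 fold change was −0.04, and whether the counting used strand is not stated.

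*Esrrg*, at chromosome 1, 187609006 to 188214884 on the plus strand, encodes the receptor that is abundant in oxidative muscle. The level in WT replicates 1 to 4 was 38.5, 33.6, 40.0 and 59.1 CPM, and in KL-/- replicates 1 to 4 it was 39.3, 30.1, 42.4 and 31.6 CPM. The genotypes overlapped, with WT replicate 4 above all other muscles. Means were 42.8 ± 11.2 CPM in WT and 35.9 ± 5.96 CPM in KL-/- muscles (log2 fold change −0.26 ± 0.18 SE, edgeR FDR = 0.343), and without WT replicate 4 the log2 fold change was −0.06 (edgeR FDR = 0.784). The log2 ratio of *Esrra* to *Esrrg* was higher by 0.25 in KL-/- muscles, within the spread of the mice (exact permutation test, p = 0.286).

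Of the mitochondrial transcription factors, *Nrf1* had the smallest p of the 10 members in edgeR with TMM factors, and *Ppargc1b* had a smaller one in DESeq2 and with library totals. *Nrf1*, at chromosome 6, 30047988 to 30153458 on the plus strand, encodes the factor that drives nuclear genes of the respiratory chain. Its level in WT replicates 1 to 4 was 11.8, 11.2, 11.5 and 12.4 CPM. In KL-/- replicates 1 to 4 it was 15.7, 13.3, 13.5 and 14.3 CPM. Every KL-/- muscle lay above every WT muscle, which was so for 10.2% of all genes. Means were 11.7 ± 0.53 CPM in WT and 14.2 ± 1.08 CPM in KL-/- muscles, a log2 fold change of 0.27 ± 0.08 (SE; 95% interval 0.09 to 0.46). It missed the threshold in edgeR (FDR = 0.0554) and passed in DESeq2 (FDR = 0.0350), with RLE factors in edgeR (FDR = 0.0491) and without KL-/- replicate 2 in edgeR (0.31, FDR = 0.0318). It was smaller with libraries scaled by their totals (0.16, edgeR FDR = 0.220) and did not pass in any of the other 7 fits that left out 1 library (highest edgeR FDR = 0.135).

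*Tfam*, at chromosome 10, 71225477 to 71238044 on the minus strand, encodes the factor that packages mitochondrial DNA and starts its transcription, and is a known target of NRF1 and GABP. WT replicates 1 to 4 were at 46.3, 49.95, 43.8 and 53.9 CPM, and KL-/- replicates 1 to 4 were at 50.9, 62.9, 51.3 and 51.9 CPM. KL-/- replicate 2 lay above all other muscles, and the other 3 KL-/- muscles lay within the WT range. Means were 48.5 ± 4.41 CPM in WT and 54.2 ± 5.78 CPM in KL-/- muscles (log2 fold change 0.16 ± 0.09 SE, edgeR FDR = 0.250). The log2 ratio of *Nrf1* to *Tfam* was higher by 0.11 in KL-/- muscles, within the spread of the mice (exact permutation test, p = 0.486).

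The PPARs are nuclear receptors for fatty acids. *Ppara*, at chromosome 15, 85735564 to 85806851 on the plus strand, drives genes of fatty acid oxidation. Its level in WT replicates 1 to 4 was 47.2, 33.6, 34.4 and 44.1 CPM, and in KL-/- replicates 1 to 4 it was 70.7, 24.8, 53.3 and 38.3 CPM. KL-/- muscles held both the highest and the lowest value, in replicates 1 and 2. Means were 39.8 ± 6.87 CPM in WT and 46.8 ± 19.7 CPM in KL-/- muscles (log2 fold change 0.23 ± 0.27 SE, edgeR FDR = 0.586), and the sign turned without KL-/- replicate 1 (−0.03).

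*Ppard*, at chromosome 17, 28232754 to 28301469 on the plus strand, encodes PPARδ, the form known for its role in oxidative fibers. Its level in WT replicates 1 to 4 was 43.9, 45.0, 41.0 and 39.2 CPM, and in KL-/- replicates 1 to 4 it was 53.7, 37.2, 56.2 and 48.0 CPM. KL-/- replicate 2 lay below every WT muscle and the other 3 KL-/- muscles lay above every WT muscle. Means were 42.3 ± 2.65 CPM in WT and 48.8 ± 8.42 CPM in KL-/- muscles (log2 fold change 0.21 ± 0.12 SE, edgeR FDR = 0.255). Without KL-/- replicate 2 the log2 fold change was 0.32 (edgeR FDR = 0.0205), without KL-/- replicate 3 it was 0.13 (edgeR FDR = 0.520), and with libraries scaled by their totals it was 0.09 (edgeR FDR = 0.603). The log2 ratio of *Ppara* to *Ppard* differed by −0.05, KL-/- minus WT, within the spread of the mice (exact permutation test, p = 0.857).

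The sirtuins had estimates of opposite sign. *Sirt1*, at chromosome 10, 63319005 to 63339035 on the minus strand, had 11.4, 10.5, 9.57 and 11.4 CPM in WT replicates 1 to 4. In KL-/- replicates 1 to 4 it had 14.4, 12.1, 11.9 and 11.9 CPM. Every KL-/- muscle lay above every WT muscle, although KL-/- replicates 3 and 4 were close to WT replicates 1 and 4. Means were 10.7 ± 0.86 CPM in WT and 12.6 ± 1.20 CPM in KL-/- muscles, a log2 fold change of 0.23 ± 0.10 (SE; 95% interval 0.01 to 0.45) that did not pass the threshold (edgeR FDR = 0.134).

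*Sirt3*, at chromosome 7, 140863663 to 140882309 on the minus strand, had 32.1, 35.2, 29.7 and 29.4 CPM in WT replicates 1 to 4. In KL-/- replicates 1 to 4 it had 25.7, 23.7, 26.9 and 31.0 CPM. KL-/- replicates 1, 2 and 3 lay below every WT muscle and KL-/- replicate 4 lay within the WT range. Means were 31.6 ± 2.69 CPM in WT and 26.8 ± 3.11 CPM in KL-/- muscles, a log2 fold change of −0.24 ± 0.10 (SE; 95% interval −0.45 to −0.02). It did not pass with TMM factors (edgeR FDR = 0.124) and did with library totals (−0.35, edgeR FDR = 0.0291). *Sirt3* shares 69 exon bases with *Ric8* on the other strand, whose log2 fold change was 0.01.

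Within libraries, the log2 ratio of *Sirt1* to *Sirt3* counts in WT replicates 1 to 4 was −1.5, −1.74, −1.63 and −1.36, and in KL-/- replicates 1 to 4 it was −0.84, −0.96, −1.17 and −1.38. KL-/- replicates 1, 2 and 3 lay above every WT muscle, and KL-/- replicate 4 lay just below WT replicate 4. Means were −1.56 ± 0.16 in WT and −1.09 ± 0.24 in KL-/- muscles, a 1.39-fold higher ratio that missed the threshold (exact permutation test, p = 0.0571, adjusted over 5 ratios p = 0.143). Without KL-/- replicate 4, the only KL-/- muscle within the WT range, the difference was 0.57. The genotypes then no longer overlapped, so the exact permutation test had to give its smallest p for 4 against 3 mice (p = 0.0286 before adjustment). Over the 8 fits that left out 1 library, p in this test ran from 0.0286 to 0.0857 before adjustment.

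**Figure D3:**
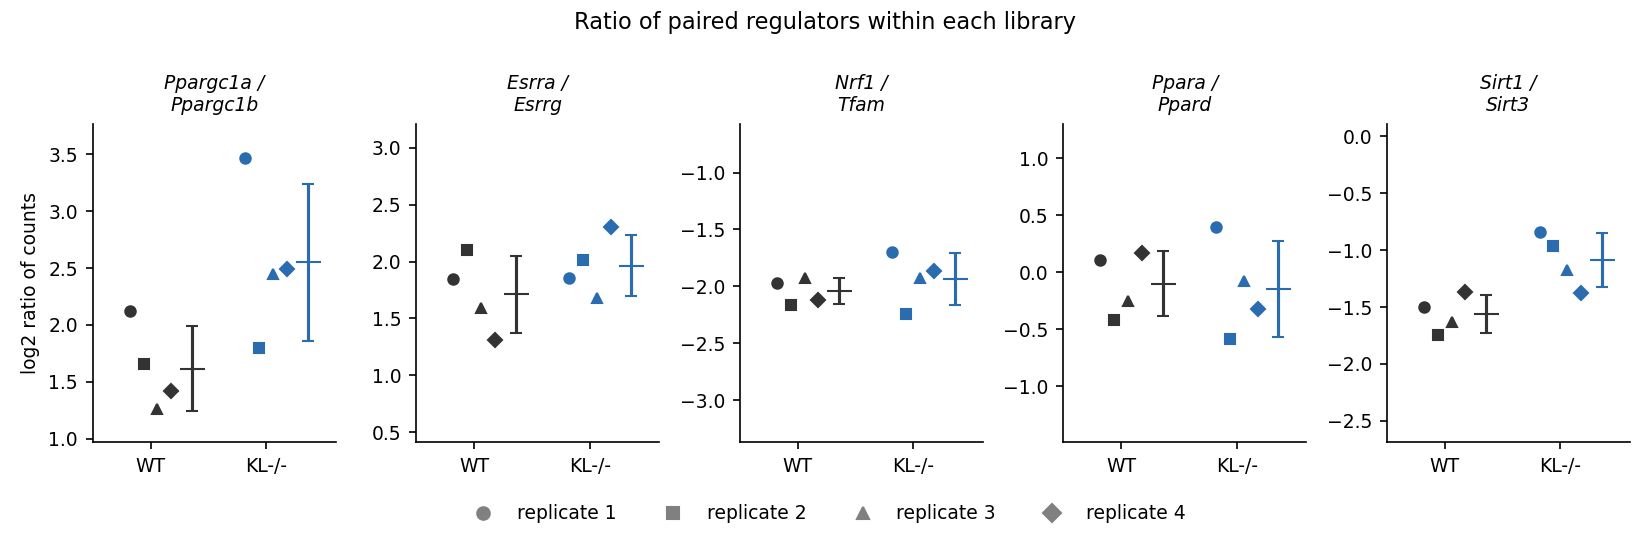
Log2 ratio of counts of 2 members within each library, for 5 pairs of members with related roles, with each mouse as a point and the mean ± SD of 4 mice per genotype. Ratios of *Ppargc1a* to *Ppargc1b* and of *Sirt1* to *Sirt3* had higher means in KL-/- muscles by 0.93 and 0.47, with 1 KL-/- muscle within the WT range in each.

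Levels were compared between members per kilobase of counted exon length. In WT muscles *Esrra* was highest at 61.3 ± 5.16 CPM per kilobase, above 93.2% of all genes. *Sirt3* (20.1 ± 1.71), *Ppard* (13.1 ± 0.82), *Tfam* (12.4 ± 1.13), *Ppargc1a* (8.98 ± 0.79), *Esrrg* (7.67 ± 2.00), *Ppara* (5.29 ± 0.91) and *Ppargc1b* (5.27 ± 1.09) followed. *Sirt1* (2.74 ± 0.22) and *Nrf1* (2.19 ± 0.10) were lowest, and *Esrra* was 27.9-fold above *Nrf1*. WT ranges of neighbors in this order overlapped between *Ppard* and *Tfam*, between *Ppargc1a* and *Esrrg*, between *Esrrg* and *Ppara*, and between *Ppara* and *Ppargc1b*, and did not overlap between the other neighbors. The order of the means was the same in KL-/- muscles, where *Ppargc1a* was at 12.8 ± 4.90 and *Ppargc1b* at 3.73 ± 0.51 CPM per kilobase.

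The spread among KL-/- mice was uneven over the members. The coefficient of variation of *Ppara* was 42.2% in KL-/- and 17.2% in WT muscles, and that of *Ppargc1a* was 38.2% and 8.76%. The medians over the 9784 genes with a mean of at least 4 CPM were 9.26% in KL-/- and 8.13% in WT muscles, and 2.28% of these genes exceeded *Ppara* and 3.07% exceeded *Ppargc1a* in KL-/- muscles. In 8 of the 10 members the KL-/- coefficient was the larger one. KL-/- replicate 2 was the lowest KL-/- muscle in 7 members and the highest in 2, *Ppargc1b* and *Tfam*, and KL-/- replicate 1 was the highest in 4.

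Fiber type and fat markers also varied between the KL-/- libraries, and not all of them in the way the members did. Counts of markers that rose stand beside the 14% of all genes that edgeR called. *Myh2*, the myosin of oxidative type IIa fibers, was at 1169, 1662, 2486 and 4436 CPM in WT replicates 1 to 4 and at 5252, 292, 5441 and 3445 CPM in KL-/- replicates 1 to 4, so that KL-/- replicate 2 was the lowest of the 8 muscles. Of the 9 slow and oxidative fiber markers 3 rose in KL-/- muscles (*Tnnc1*, *Tnni1* and *Tnnt1*), none was at 0, and their summed level, most of it *Myh2* and *Mb*, was 6084 to 11040 CPM in WT and 2803 to 11040 CPM in KL-/- libraries. In KL-/- replicate 2, *Mb* (2391 CPM) and *Myl3* (40.6 CPM) were, like *Myh2*, the lowest of the 8 muscles. There *Tnnc1* (3.20 CPM), *Tnni1* (4.58 CPM) and *Tnnt1* (9.59 CPM) lay above every WT muscle. *Myh7*, *Myl2* and *Atp2a2* lay within the WT range. *Adipoq*, which encodes a hormone of fat cells, was at 9.90 CPM in KL-/- replicate 1 and 5.15 CPM in KL-/- replicate 2, against 0.60 to 3.23 CPM in the other 6 libraries. Of the 7 white fat cell markers 5 were measured and 1 rose (*Fabp4*), and their summed level, most of it *Fabp4*, was 185 to 216 CPM in WT and 216 to 293 CPM in KL-/- libraries. The part of fiber type and fat in the members' values was not tested.

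Markers of other cell types were measured as follows. Of all genes, edgeR called 14% and DESeq2 19.6%, and 32.1% had an unadjusted p under 0.05 in edgeR. Of the Schwann cell markers, *Sox10* rose, with 0.73 to 1.11 CPM in WT and 1.78 to 2.10 CPM in KL-/- libraries (edgeR FDR = 0.0125), and *Mbp* rose, with 10.4 to 16.4 CPM in WT and 17.3 to 22.9 CPM in KL-/- libraries (edgeR FDR = 0.0251). Not all markers of this cell type did so. *S100b* had a negative log2 fold change (−0.23, edgeR FDR = 0.503) and *Pmp22* a positive one (0.21, edgeR FDR = 0.356), and neither passed. Of 7 endothelial markers 1 fell, *Kdr*, with 77.0 to 124 CPM in WT and 48.0 to 59.1 CPM in KL-/- libraries, where DESeq2 called 2 and 4 had an unadjusted p under 0.05, all lower. The sum of the 7 was 437 to 672 CPM in WT and 394 to 437 CPM in KL-/- libraries. Of 6 fibroblast markers 2 fell (*Dcn* and *Lum*), DESeq2 called 3 and 6 had an unadjusted p under 0.05, all lower, and the sum of the 6 was 879 to 3688 CPM in WT and 497 to 1650 CPM in KL-/- libraries. Of 8 macrophage markers 2 fell (*Adgre1* and *Itgam*), and 6 were lower in DESeq2 and 6 at an unadjusted p under 0.05, with a sum of 38.9 to 89.9 CPM in WT and 28.2 to 56.0 CPM in KL-/- libraries. Of 3 measured brown fat markers 1 fell, *Dio2*, which encodes an enzyme that activates thyroid hormone. Of 9 muscle fiber markers edgeR called 0 (2 at an unadjusted p under 0.05, both higher) and DESeq2 called 3, all higher. Of 5 smooth muscle and pericyte markers and 3 satellite cell markers both tools called 0 (0 at an unadjusted p under 0.05). The part of these cells in the members' values was not tested.

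**Figure D4:**
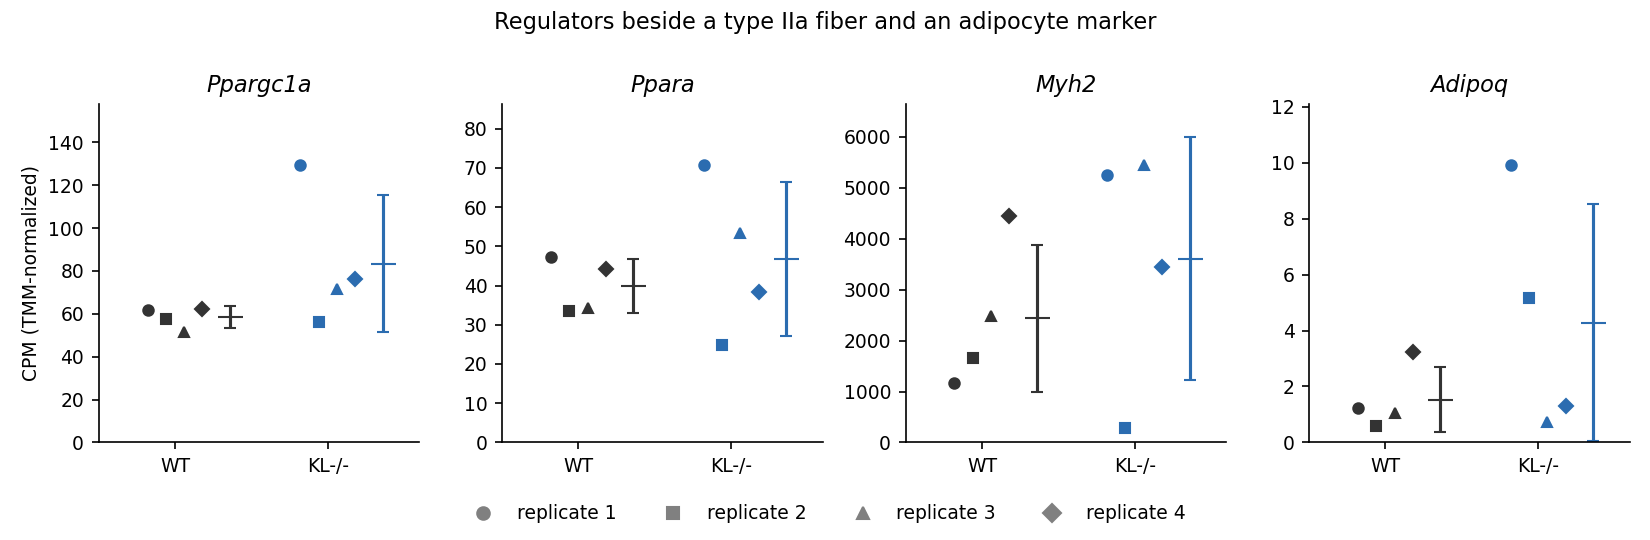
*Ppargc1a* and *Ppara* beside the type IIa fiber marker *Myh2* and the fat cell marker *Adipoq*, in CPM (TMM-normalized, linear axes from 0) for each of the 8 muscles, with mean ± SD per genotype. KL-/- replicate 2 was the lowest muscle for *Myh2* at 292 CPM, and KL-/- replicate 1 was the highest for *Ppargc1a*, *Ppara* and *Adipoq*.

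Genes around the members were read from 6 lists, where edgeR called 14% of all genes. Among 31 related regulators, the partners and corepressors of these factors, 2 passed the threshold, both higher in KL-/- muscles, a share of 6.45%, with a median log2 fold change of 0.07. *Ncor1*, a corepressor of nuclear receptors, was at 157 to 169 CPM in WT and 185 to 200.3 CPM in KL-/- muscles, with no overlap (log2 fold change 0.25 ± 0.05 SE, edgeR FDR = 0.0162). *Hdac5*, a deacetylase that represses MEF2 factors, was at 78.2 to 85.7 CPM in WT and 90.5 to 111 CPM in KL-/- muscles (0.32 ± 0.07 SE, edgeR FDR = 0.0243). *Crtc2* (0.23, edgeR FDR = 0.0770) and the estrogen-related receptor *Esrrb* (−0.87, edgeR FDR = 0.0949) did not pass. *Ncor1* kept its call in 6 and *Hdac5* in 2 of the 8 fits that left out 1 library, and neither was called with library totals.

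Of 22 measured upstream kinases and phosphatases, which carry calcium and energy signals to PGC-1α, 3 rose and 2 fell, a share of 22.7% where 14% of all genes were called. *Ppp3ca*, the catalytic subunit of calcineurin, was at 240 to 278 CPM in WT and 325 to 356 CPM in KL-/- muscles (0.41 ± 0.06 SE, edgeR FDR = 0.00623), and *Stk11*, which encodes the AMPK kinase LKB1, was at 102 to 113 CPM and 127 to 147 CPM (0.32 ± 0.06 SE, edgeR FDR = 0.0140). Both were called in all 8 fits that left out 1 library. The calcium-dependent kinase *Camk2b* rose (0.28, edgeR FDR = 0.0432) and its relative *Camk2d* fell by 0.41 (edgeR FDR = 0.0417), and they kept the call in 2 and 1 of those 8 fits. With library totals *Camk2b* was not called (0.16, edgeR FDR = 0.167). *Mapk14*, the p38 kinase that phosphorylates PGC-1α, was at 165 to 206 CPM in WT and 133 to 161 CPM in KL-/- muscles, with no overlap (−0.38 ± 0.08 SE, edgeR FDR = 0.0211, called in 4 of 8).

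Of 20 measured genes of other sirtuins and NAD metabolism, 2 rose and 1 fell, a share of 15.0% where 14% of all genes were called. *Nadk2*, the mitochondrial NAD kinase, was at 39.5 to 55.6 CPM in WT and 59.1 to 67.6 CPM in KL-/- muscles (0.45 ± 0.11 SE, edgeR FDR = 0.0240). *Nnt*, which makes NADPH in the inner mitochondrial membrane, was at 73.3, 60.6, 69.9 and 105 CPM in WT and 141, 87.8, 144 and 142 CPM in KL-/- replicates 1 to 4 (0.74 ± 0.19 SE, edgeR FDR = 0.0357), with KL-/- replicate 2 within the WT range. *Nmrk2*, a nicotinamide riboside kinase of muscle, was at 128, 110, 132 and 200.2 CPM in WT and 21.1, 87.5, 40.0 and 65.6 CPM in KL-/- replicates 1 to 4, without overlap (−1.42 ± 0.38 SE, edgeR FDR = 0.0370). The call was kept in 4 (*Nadk2*), 2 (*Nnt*) and 2 (*Nmrk2*) of the 8 fits that left out 1 library, and *Nnt* lost it with library totals (0.62, edgeR FDR = 0.0535). *Slc25a51*, the mitochondrial NAD carrier, did not pass (0.23, edgeR FDR = 0.0734).

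Among 24 genes of mitochondrial DNA maintenance and transcription, the process TFAM serves, 1 passed, and it rose. This was a share of 4.17% where 14% of all genes were called. *Clpx*, a subunit of the matrix protease ClpXP, was at 83.0 to 90.5 CPM in WT and 104 to 114 CPM in KL-/- muscles (0.31 ± 0.05 SE, edgeR FDR = 0.00971) and was called in all 8 fits that left out 1 library. *Primpol* (−0.88, edgeR FDR = 0.0521), *Lonp1* (0.23, edgeR FDR = 0.0635) and *Mterf2* (−0.31, edgeR FDR = 0.0658) did not pass. The median log2 fold change of the list was −0.04.

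Of 31 measured PPAR targets 4 passed and all of these rose, a share of 12.9% where 14% of all genes were called. The median log2 fold change of the list was 0.04. *Plin4*, a lipid droplet coat protein, was at 244, 203, 221 and 259 CPM in WT and 491, 342, 564 and 417 CPM in KL-/- replicates 1 to 4, without overlap (0.97 ± 0.15 SE, edgeR FDR = 0.00584). *Slc27a1*, a fatty acid transporter, was at 93.3 to 130 CPM in WT and 140 to 161 CPM in KL-/- muscles (0.47 ± 0.10 SE, edgeR FDR = 0.0148). Both were called in all 8 fits that left out 1 library. *Acot1*, a cytosolic acyl-CoA thioesterase, rose by 1.46 ± 0.32 (SE, edgeR FDR = 0.0205) from a low level of 0.42 ± 0.18 to 1.20 ± 0.26 CPM, and its counts are uncertain, since it has near-identical paralogs. *Fabp4*, a fatty acid carrier of fat and endothelial cells, rose by 0.27 ± 0.07 (SE, edgeR FDR = 0.0300) and kept the call in 2 of 8 fits, and not with library totals (0.15, edgeR FDR = 0.138). The fat cell marker *Adipoq* was at 9.90, 5.15, 0.75 and 1.32 CPM in KL-/- replicates 1 to 4, and *Fabp4* at 222, 242, 234 and 203 CPM. The part of fat cells in the levels of these targets was not tested.

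Among 31 targets of the estrogen-related receptors and of NRF1, mostly genes of the respiratory chain and its supply, 1 passed and rose. This was a share of 3.23% where 14% of all genes were called. *Cox6a2*, the muscle form of a cytochrome oxidase subunit, was at 695, 616, 560 and 680 CPM in WT and 840, 692, 875 and 859 CPM in KL-/- replicates 1 to 4 (0.36 ± 0.10 SE, edgeR FDR = 0.0413), with KL-/- replicate 2 within the WT range, and it kept the call in 1 of the 8 fits that left out 1 library and not with library totals (edgeR FDR = 0.104). *Ckmt2*, the mitochondrial creatine kinase, was at 2798 to 3104 CPM in WT and 1568 to 2438 CPM in KL-/- muscles without overlap, and did not pass (−0.43, edgeR FDR = 0.0602). *Gpd2* (0.26, edgeR FDR = 0.111) and *Dnm1l* (−0.16, edgeR FDR = 0.116) did not pass. The median log2 fold change of the list was 0.00, against −0.02 over all genes.

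Counts of these lists moved with the number of calls over all genes when a library was left out. Without KL-/- replicate 2, an alternative chosen after seeing the data, 4 related regulators, 10 kinases and phosphatases, 5 genes of NAD metabolism, 4 of mitochondrial DNA, 10 PPAR targets and 4 targets of the estrogen-related receptors and NRF1 passed in edgeR, where 22% of all genes were called. Without KL-/- replicate 3 the counts were 1, 2, 0, 1, 2 and 0 in the same order, where 6.07% of all genes were called. The 10 PPAR targets called without KL-/- replicate 2 were 5 that rose and 5 that fell.

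**Figure D5:**
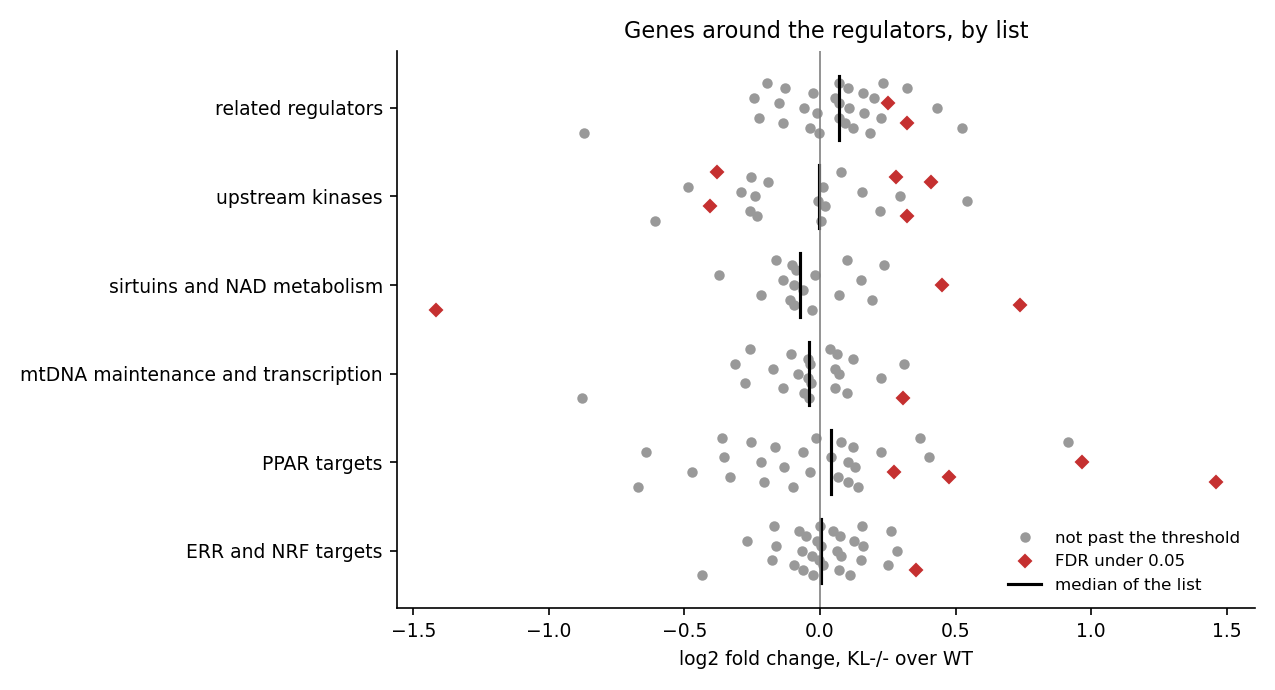
Log2 fold change, KL-/- over WT, of every measured gene in the 6 lists around the members, with genes past the edgeR FDR threshold as red diamonds, the others as gray circles and the median of each list as a black bar. List medians lie between −0.08 and 0.07, near the median of all genes at −0.02.

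The genes whose pattern over the 8 libraries was most like that of *Ppargc1a* and of *Nrf1* were found among 9821 genes by the root mean square difference of log2 CPM after centering each gene on its mean. For *Ppargc1a*, whose own root mean square deviation was 0.39, they were *Slc6a6*, the taurine transporter, at 0.13, *Slc9a3r2* at 0.17 and *Acaca*, an acetyl-CoA carboxylase, at 0.18. All of these were highest in KL-/- replicate 1, as *Slc6a6* shows with 302 CPM there against 141 to 184 CPM in the other 7 muscles. For *Nrf1*, with a deviation of 0.15, they were *Nvl*, a factor of ribosome assembly, and *Son*, a splicing cofactor, at 0.04 and 0.05, and the corepressor *Ncor1* at 0.05. Every KL-/- muscle lay above every WT muscle for *Nvl*, *Son* and *Ncor1*, as for *Nrf1* itself and for 10.2% of all genes. Genes chosen by likeness share much of the member's pattern through that choice.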

How the data were processed

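RNA from TA muscle of 4 WT and 4 KL-/- mice was sequenced by the study from 100 ng of RNA per library. Per the paper's methods and the submitters' processing notes, reads were checked with FastQC and aligned to mm10 with STAR, low-quality alignments were excluded and genes were quantified with featureCounts. The deposited values are raw counts per gene, without normalization, for 12551 genes. The annotation release and the strand setting are not given in the sources used here. Genotype and replicate number were taken from the sample labels.

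Counts were analyzed in R 4.3.3 with edgeR 4.0.16. The default filter on low counts removed no gene, since the table had been limited to expressed genes. TMM factors were 1.03 to 1.05 in WT and 0.950 to 0.980 in KL-/- libraries. The quasi-likelihood test with genotype as the only term was fitted on all genes, with Benjamini-Hochberg adjustment and a threshold of 0.05. Reads sharing bases with a gene on the other strand can enter its count if strand was not used. Totals of 20860262 to 29273758 counts put 3 counts at 0.102 to 0.144 CPM. No 2 libraries of a genotype were duplicates, with a chi-square per gene of 9.91 or more. For log2 ratios of counts plus 0.5, two-sided exact permutation tests were run in Python 3.11.15. The labels do not say whether the mice were littermates, and p-values set the difference between genotypes against the spread between mice.

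The 10 members were named by a list, and the members, the lists around them and the marker lists were chosen with earlier results of these data known. From each list the 4 genes with the smallest p are named, with any other gene needed to name a count of 5 or fewer, and for likeness the 3 nearest genes of those whose mean log2 CPM was 2 or more. Other marker genes and libraries were chosen after values were seen. Fits were tested on simulated counts with 200 genes changed. Alternatives were DESeq2 1.42.0, edgeR's earlier quasi-likelihood form, RLE factors, library totals, no filter, at least 10 counts in every library, the replicate number as a block, a pseudocount of 2 for ratios, and each library left out in turn. Reads and *Kl* were not analysed here, and 1 marker gene is not reported here.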

Additional observations from a re-analysis of the deposited data

Results flagged for a closer look

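In 90 groups of 4 muscles, one for each named gene or ratio and genotype, a gap test for a single distant sample (Dixon) marked 4, where chance marks about 1 in 20. *Tfam* in KL-/- replicate 2 was at 62.9 CPM, against 50.9 to 51.9 CPM in the other KL-/- muscles. *Sirt1* in KL-/- replicate 1 was at 14.4 CPM, against 11.9 to 12.1 CPM in the other KL-/- muscles. *Camk2b* in WT replicate 4 was at 228 CPM, against 182 to 188 CPM in the other WT muscles. *Nnt* in KL-/- replicate 2 was at 87.8 CPM, against 141 to 144 CPM in the other KL-/- muscles.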

How the results depend on the processing

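Of all genes, edgeR with TMM factors called 1759, of which 52.4% were higher in KL-/- muscles. With library totals it called 2624, of which 18.8% were higher, and the median over all genes shifted by −0.12 on the log2 scale. The number of members called was 0 with edgeR's earlier form, with no filter, with at least 10 counts and with the replicate block, 1 with RLE factors, 2 with DESeq2 and 2 with library totals, and 0 to 4 with 1 library left out, where 762 to 2755 of all genes were called. For mice of the same replicate number, the correlation of their deviations from the genotype means ran from −0.37 to 0.18. Only replicate 2 matched its own number best. These values cannot decide whether the numbers pair the mice, since the labels give no pairing to check them against. With the number as a block, 671 genes were called. Of the list genes called without the block, *Ppp3ca*, *Nnt*, *Nmrk2*, *Clpx*, *Plin4* and *Slc27a1* kept the call with it. The other list genes lost it, among them *Stk11* (edgeR FDR = 0.0626) and *Ncor1* (edgeR FDR = 0.0643). *Esrra* turned sign with library totals (−0.10) and had −0.046 to 0.085 with 1 library left out, and *Ppara* had −0.026 to 0.45. The difference in the ratio of *Ppara* to *Ppard* ran from −0.23 to 0.10, that of *Sirt1* to *Sirt3* from 0.39 to 0.57 and that of *Ppargc1a* to *Ppargc1b* from 0.63 to 1.19. The log2 fold change of *Ppargc1a* with 1 library left out was 0.23 to 0.67, the lowest without KL-/- replicate 1, and those of *Ppargc1b* (−0.63 to −0.40), *Nrf1* (0.23 to 0.31), *Sirt1* (0.17 to 0.27) and *Sirt3* (−0.31 to −0.17) kept their sign. With library totals, 1 related regulator (0 higher), 9 kinases and phosphatases (2 higher), 4 genes of NAD metabolism (1 higher), 4 of mitochondrial DNA (1 higher), 3 PPAR targets (3 higher) and 5 targets of the estrogen-related receptors and NRF1 (0 higher) were called. With 1 library left out, list counts ran from 1 to 4 (related regulators), 2 to 10 (kinases and phosphatases), 0 to 5 (NAD metabolism), 1 to 4 (mitochondrial DNA), 2 to 10 (PPAR targets) and 0 to 4 (targets of the estrogen-related receptors and NRF1), for the libraries KL-/- replicates 3 and 2. The causes of these shifts were not tested. Counts of 227 to 449 per library also limit the precision of *Nrf1* and *Sirt1*.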
